A study of Mus musculus with 2 samples.

Results

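The 10 genes described here belong to the circadian clock: the repressors Per1, Per2, Per3, Ciart and Bhlhe41, the nuclear receptors Nr1d1 and Nr1d2, the activator Arntl, and the output factors Dbp and Tef. They were taken by symbol from the 27998 gene rows of 2 single-cell RNA libraries, and all 10 were found. The set was chosen by name with the ratios of these libraries in retinal pigment epithelium (RPE) cells already known, and so was in part selected on those ratios, which are given as a description and support no statement about the set. In RPE cells of the NaIO3 library Ciart, Per3 and Dbp were lower and Arntl was higher than in the PBS library by more than 1.5-fold. The other 6 members lay within 1.5-fold.

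The NaIO3 group was C57BL/6J mice given NaIO3 (sodium iodate, an oxidant that damages the RPE) by vein, at 20 mg/kg in PBS, and the PBS group was C57BL/6J mice given the same volume of phosphate-buffered saline. Both treatments are labelled as lasting 7 days, and neither an age nor an hour of collection was used here. Eyes of 6 mice were pooled in each group. Each pool was digested with dispase, the neural retina and front of the eye were taken off, and brown six-sided cells of the RPE and choroid were collected by eye for droplet sequencing. There is 1 library per group, so no value below has a replicate check or a test, and the 95% intervals, exact throughout, reflect counting error alone. An effect of the treatment, of the pool of mice and of the clock time at which each pool was collected cannot be told apart in this design.

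In mammalian cells the CLOCK protein and BMAL1, the product of Arntl, bind E-box elements and drive the Per genes, Ciart, Nr1d1, Nr1d2, Bhlhe41, Dbp and Tef. PER proteins with cryptochromes, CIART and DEC2 (the product of Bhlhe41) repress that drive, while REV-ERB alpha and beta (Nr1d1 and Nr1d2) repress Arntl through ROR elements, so that Arntl and its targets peak at opposite times of day in most tissues. DBP and TEF bind D-box elements and pass the rhythm to other genes. The RPE holds a clock of its own and takes up photoreceptor outer segment tips in a daily burst.

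Elements of the kinds named above were sought in the members' promoters and found for 7 of the 9 members that had an entry. The promoters of Ciart and Per3 are shown in full up to the start because these genes had the lowest NaIO3 to PBS ratios of the 10 in RPE cells. Sequences are from the RefSeq promoter table of GRCm38.p6, 250 bases before the gene's start to 50 after it, where 1 of the 10 members was missing. They are written 5′ to 3′ in the direction of the gene, with matched elements in capitals. For Ciart the 250 bases before the start lie on the minus strand at chr3:95882229-95882478 and hold CACGTG, the E-box, beginning at positions -116, -58 and -44 relative to the start.
Ciart: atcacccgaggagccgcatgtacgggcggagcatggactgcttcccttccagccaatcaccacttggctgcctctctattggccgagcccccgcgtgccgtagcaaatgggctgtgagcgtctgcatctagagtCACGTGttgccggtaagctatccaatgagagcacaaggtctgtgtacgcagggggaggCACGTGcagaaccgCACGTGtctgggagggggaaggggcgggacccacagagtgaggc
For Per3 the 250 bases before the start lie on the minus strand at chr4:151044666-151044915 and hold TTATGTAA, a D-box, beginning at positions -205 and -158, with no CACGTG.
Per3: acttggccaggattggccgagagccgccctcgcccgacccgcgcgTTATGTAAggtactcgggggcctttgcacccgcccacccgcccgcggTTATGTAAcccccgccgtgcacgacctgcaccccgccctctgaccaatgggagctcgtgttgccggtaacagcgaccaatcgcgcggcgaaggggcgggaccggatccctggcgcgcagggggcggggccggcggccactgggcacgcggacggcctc

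Windows of 30 bases show the first match in the other promoters that had one, with the E-box in capitals for Per1 (chr11:69098771-69098800, plus strand), Bhlhe41 (chr6:145865556-145865585, minus strand) and the 2 promoters listed for Tef (chr15:81802534-81802563 and chr15:81811264-81811293, plus strand). The Nr1d1 window (chr11:98775388-98775417, minus strand) has the variant CACGTT on the strand opposite to the gene, so it reads in the reverse complement. The Arntl window (chr7:113207529-113207558, plus strand) has TAGGTCA, a ROR element, beginning 31 bases into the transcribed part, counting the start as 1.
Per1: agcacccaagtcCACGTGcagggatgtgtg
Bhlhe41: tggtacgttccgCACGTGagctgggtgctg
Tef, first promoter: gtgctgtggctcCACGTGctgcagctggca
Tef, second promoter: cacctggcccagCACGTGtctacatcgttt
Nr1d1: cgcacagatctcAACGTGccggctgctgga
Arntl: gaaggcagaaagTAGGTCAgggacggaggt

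Both strands were searched for 6 elements, none of which overlapped another in the members. Of all 32851 promoters in the table, 7.15% held the E-box CACGTG, which was found for 4 members. The variant CACGTT was in 4.68% of promoters and found for 1 member. Of the D-box forms, TTATGTAA was in 0.938% of promoters and found for 1 member, and TTACGTAA was in 0.119% and found for 0. Of the ROR elements, TAGGTCA was in 2.61% of promoters and found for 1 member, and TGGGTCA was in 3.98% and found for 0. No match was found in the windows for Dbp and Nr1d2, the second promoter of Per1 or the first of Arntl, and Per2 had no entry. A member was counted if any of its promoters held the element, while the shares are of single promoters, so they are not directly comparable. A match describes these letters and not a site in use.

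The NaIO3 library had 4058 barcodes and 51168520 unique molecular identifiers (UMIs, 1 per captured RNA molecule), and the PBS library 4618 barcodes and 51055592 UMIs, with 24 barcode sequences in common. Cells were placed in classes by the summed UMIs of marker genes. The RPE class held 2207 NaIO3 and 3483 PBS cells, the surface epithelium class 686 NaIO3 and 71 PBS cells, the myeloid class 472 NaIO3 and 106 PBS cells, and the fibroblast class 60 NaIO3 and 185 PBS cells. The mural (vessel wall), endothelial and rod classes were small, with 28, 13 and 32 NaIO3 cells and 65, 36 and 73 PBS cells, and only levels are given for them. In the RPE class 7 of the 8 RPE markers stood at 443 to 6632 CPM (UMIs of a gene per 1000000 UMIs of the class) in NaIO3 cells and 626 to 7420 CPM in PBS cells, but Best1 was at 0.454 CPM in NaIO3 and 0.348 CPM in PBS cells. Some members share their locus with another gene, and the strand setting of the counting is not given in the sources used here, so reads of overlapping genes on opposite strands cannot be told apart. Besides those named below, Gm43909 overlaps Bhlhe41, Gm45355 overlaps Arntl and Gm17597 overlaps Tef, each on the opposite strand. Their part in the counts was not tested.

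The PER proteins and CIART form the repressing arm of the loop. Summed over the RPE cells of each library, Ciart had 186 UMIs in NaIO3, or 7.03 CPM (6.06 to 8.12), against 947 UMIs in PBS, or 22.0 CPM (20.6 to 23.4). Its ratio of 0.320 (0.272 to 0.375) was the lowest of the 10. C920021L13Rik, which overlaps Ciart on the opposite strand, was at 14.5 CPM in NaIO3 and 24.0 CPM in PBS RPE cells, and its part in the Ciart counts was not tested. Per3 had 23.8 CPM (22.0 to 25.7) in NaIO3 and 43.5 CPM (41.5 to 45.5) in PBS RPE cells, a ratio of 0.547 (0.499 to 0.599). Camta1, which overlaps Per3 on the same strand, was at 23.5 CPM in NaIO3 and 25.1 CPM in PBS.

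The other PER genes differed less between the libraries. Per2 was at 13.8 CPM (12.4 to 15.3) in NaIO3 and 19.3 CPM (18.0 to 20.7) in PBS, a ratio of 0.713 (0.629 to 0.807). Per1, which also responds to acute signals such as glucocorticoids and cyclic AMP, was at 23.5 CPM (21.7 to 25.4) in NaIO3 and 26.9 CPM (25.3 to 28.5) in PBS, a ratio of 0.874 (0.792 to 0.964). Bhlhe41, the repressor DEC2, was at 82.3 CPM (78.8 to 85.8) in NaIO3 and 106 CPM (103 to 109) in PBS, a ratio of 0.776 (0.737 to 0.816). All 5 repressors thus had a lower level in NaIO3 RPE cells, and the intervals of the 2 libraries overlapped only for Per1.

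Nr1d1 and Nr1d2, which encode related heme-binding repressors, lay on opposite sides of 1. Nr1d1 was at 59.4 CPM (56.5 to 62.4) in NaIO3 and 42.5 CPM (40.6 to 44.5) in PBS RPE cells, a ratio of 1.40 (1.31 to 1.496). Nr1d2 was at 57.3 CPM (54.5 to 60.3) in NaIO3 and 74.6 CPM (72.1 to 77.3) in PBS, a ratio of 0.768 (0.722 to 0.816). The sign of Nr1d1 was opposite to that of all 5 repressors. Its locus overlaps Thra, the thyroid hormone receptor alpha gene, on the other strand, and Thra was at 52.9 CPM in NaIO3 and 62.1 CPM in PBS RPE cells. Its part in the Nr1d1 counts was not tested.

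Arntl, the activator, was the member with the highest ratio. It had 240 UMIs in NaIO3 RPE cells, or 9.07 CPM (7.96 to 10.3), and 198 UMIs in PBS RPE cells, or 4.59 CPM (3.98 to 5.28), a ratio of 1.98 (1.63 to 2.40). Its partner Clock, no member of the set, was at 40.8 CPM (38.4 to 43.3) in NaIO3 and 36.2 CPM (34.4 to 38.0) in PBS, a ratio of 1.13 (1.04 to 1.22).

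The output factors Dbp and Tef had the most counts of the 10. Dbp had 8091 UMIs in NaIO3 RPE cells, or 306 CPM (299 to 313), and 20646 UMIs in PBS RPE cells, or 479 CPM (472 to 486), a ratio of 0.639 (0.622 to 0.655). Dbp lay near the 1.5-fold mark and was within it when free RNA was subtracted, without cells high in pigment genes and without cells with interferon-induced UMIs. Sphk2, on the strand opposite to Dbp, was at 25.9 CPM in NaIO3 and 16.03 CPM in PBS. Tef was at 105 CPM (101 to 109) in NaIO3 and 115.5 CPM (112 to 119) in PBS, a ratio of 0.907 (0.865 to 0.950), and its direction depended on how cells were weighted: the log2 ratio was -0.14 from summed counts and 0.02 from the mean of each cell's CPM.

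**Figure D1:**
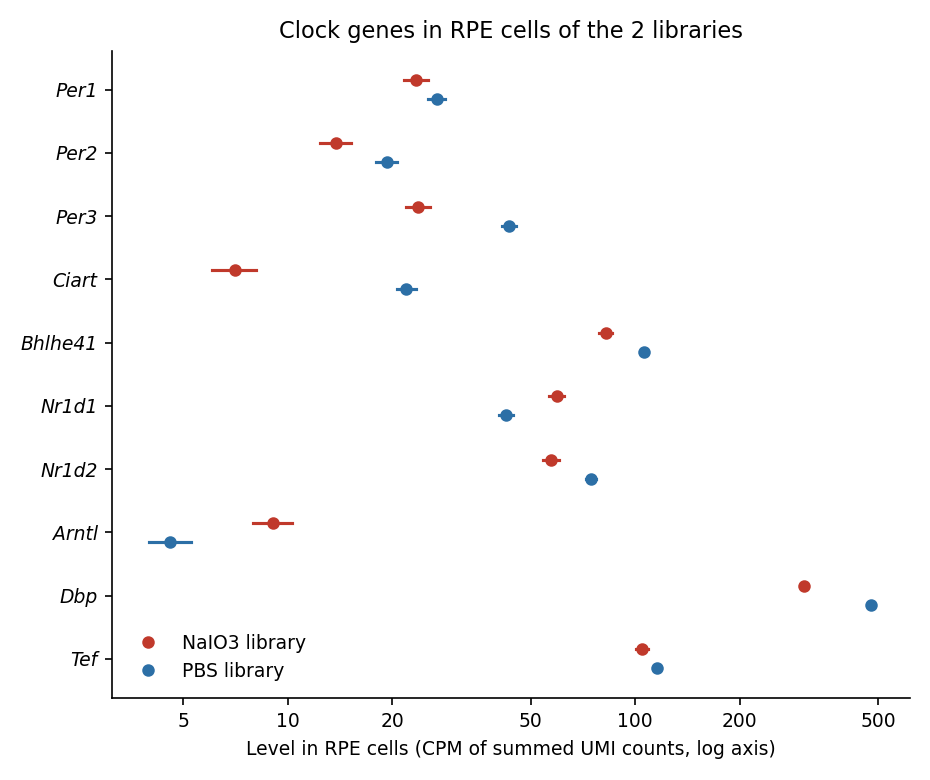
Level of each clock gene in RPE cells of the NaIO3 library (red, upper point of each pair) and the PBS library (blue, lower point), in CPM on a log axis, with exact Poisson 95% intervals as bars (hidden by the point where narrow). Ciart stands at 7.03 CPM in NaIO3 and 22.0 CPM in PBS, and Nr1d1 and Arntl are the genes whose red point lies to the right of the blue one.

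Over the 10 members in RPE cells, 8 ratios were below 1 and 2 above it, with a median log2 ratio of -0.37. The same median over all 14202 genes with at least 20 UMIs in RPE cells was 0.17, with 5043 ratios below 1 and 9159 above it. A level at least 1.5-fold lower in NaIO3 was seen for 3 members, beside 6.98% of all measured genes, and one at least 1.5-fold higher for 1 member, beside 22.8%. TMM scaling is an alternative that scales each library by a factor, assuming that most genes do not differ. With it 11.4% of measured genes were lower and 16.9% higher by that fold, as were 4 members and 1 member. The directions of all 10 members were as in CPM. Nothing is read from these counts, since the set was chosen with them known.

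**Figure D2:**
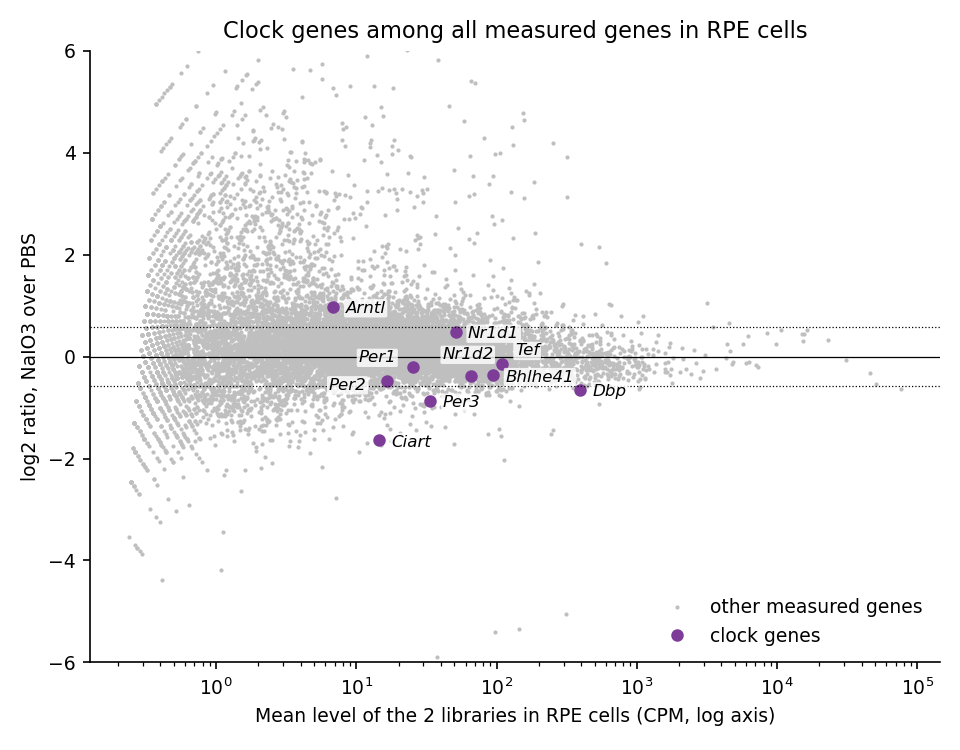
Each gene measured in RPE cells by its mean level of the 2 libraries (CPM, log axis) and its log2 ratio of NaIO3 over PBS, with clock genes in purple, other genes in grey and dotted lines at 1.5-fold; 14 genes with a count in both libraries lie beyond the axis. Ciart, Per3 and Dbp lie below the lower dotted line and Arntl above the upper one.

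The RPE cells of the 2 libraries differed in other ways, so the ratios were taken again within strata. The median mitochondrial share of a cell's counts was 11.9% in NaIO3 and 8.30% in PBS RPE cells, and the median number of UMIs was 9397 in NaIO3 and 11329 in PBS. When both libraries were clustered together, the gated RPE cells lay in nearly separate clusters. Of the 2207 NaIO3 RPE cells 99.2% were in clusters whose gated RPE cells were at least 95% NaIO3, and of the 3483 PBS RPE cells 97.9% were in clusters at least 95% PBS in the same sense. The ratios therefore compare RPE cells of different clusters, and the part of this in them was not tested. With the clusters that passed the RPE marker rule in place of the gate, 3 members were lower by 1.5-fold, beside 5.98% of measured genes. In the same clusters 1 member was higher by that fold, beside 25.7%. Several members varied with the mitochondrial share within each library. Per1 was 2.15-fold higher in NaIO3 RPE cells with a mitochondrial share of 10% or more than in those under 10%, and 1.58-fold higher in PBS RPE cells split the same way. The corresponding folds were 1.70 in NaIO3 and 1.77 in PBS for Arntl, 1.66 in NaIO3 and 1.24 in PBS for Tef, and 1.41 in NaIO3 and 1.26 in PBS for Nr1d1. Dbp was at 0.985 in NaIO3 and 0.901 in PBS, and Per3 at 0.974 in NaIO3 and 1.14 in PBS.

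Among RPE cells under 10% mitochondrial share, 760 in NaIO3 and 2412 in PBS, Per1 was at 15.2 CPM in NaIO3 and 24.1 CPM in PBS, a ratio of 0.631 (0.540 to 0.735), well below its ratio over all RPE cells. Tef had a ratio of 0.723 (0.676 to 0.774) there. With Per2 at 0.639 (0.533 to 0.761), the members lower by at least 1.5-fold in this stratum numbered 5, beside 6.45% of all genes measured there, and the 1 higher was Arntl, beside 16%. Over all RPE cells 3 were lower. Among the 1447 NaIO3 and 1071 PBS RPE cells with a share of 10% or more, Per1 was at 32.6 CPM in NaIO3 and 37.9 CPM in PBS, a ratio of 0.859 (0.741 to 0.996).

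Over 10 strata, which split RPE cells by mitochondrial share, UMIs, pigment genes, interferon-induced genes and RPE marker score, Ciart was lower and Arntl was higher in NaIO3 by at least 1.5-fold in 10 of 10. Per3 was also lower by that fold in 10 of 10, with ratios from 0.433 to 0.626. Ciart ran from 0.263 in cells with UMIs at or over the median to 0.431 in those under it, and Arntl from 1.57 to 2.42. Split by mitochondrial share, Arntl had ratios of 1.708 under 10% and 1.645 at 10% or more. Both were below its ratio of 1.98 over all RPE cells, though within the interval of that ratio. A share of 10% or more was found in 1447 of 2207 NaIO3 and 1071 of 3483 PBS RPE cells. The part of this imbalance in the Arntl ratio over all RPE cells was not tested. Dbp was below 1 in all 10 strata, from 0.590 to 0.689, and past 1.5-fold in 5 of them. Nr1d1 was above 1 in all 10, from 1.23 to 1.57. Tef, from 0.723 to 1.07, was the member whose direction varied, with 8 strata below 1.

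**Figure D3:**
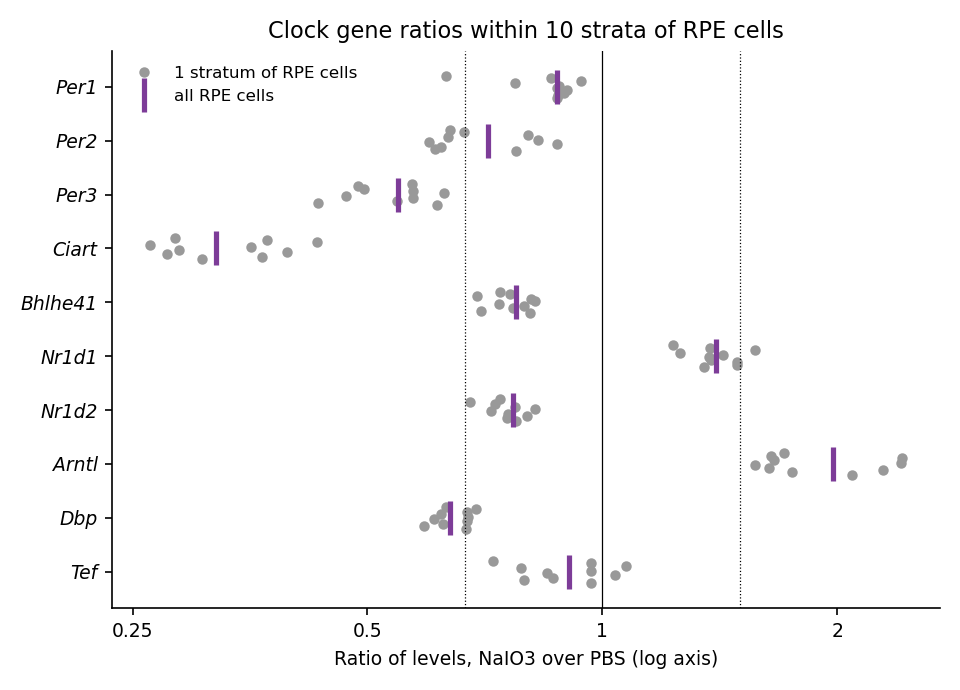
Ratio of NaIO3 over PBS for each clock gene in all RPE cells (purple bar) and in each of 10 strata of RPE cells (grey points), on a log axis with dotted lines at 1.5-fold in each direction. All points of Ciart and Per3 lie left of the lower dotted line, all of Arntl right of the upper one, and those of Tef on both sides of 1.

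Free RNA from other cells reached the RPE droplets in unequal amounts. Surface epithelium markers had a summed level of 1685 CPM in NaIO3 and 281 CPM in PBS RPE cells (8 of 8 markers above 0 in each), and myeloid markers 1741 CPM in NaIO3 and 219 CPM in PBS (10 of 10 above 0). In NaIO3 the surface epithelium markers stood in RPE cells at 3.25% of their level in the surface epithelium class, and the myeloid markers at 3.59% of theirs. At these shares the surface epithelium class would supply 3.89 of the 59.4 CPM of Nr1d1 in NaIO3 RPE cells and the myeloid class 3.56 of the 82.3 CPM of Bhlhe41. For each member and either of these classes the part so supplied was at most 6.54% of the NaIO3 RPE level. Rod markers, in contrast, were lower in NaIO3, with a summed level of 317 CPM in NaIO3 and 801 CPM in PBS RPE cells. They stood at 0.626% of their rod class level in NaIO3 and 1.42% in PBS, and at these shares rods would supply 0.236 CPM of the Arntl level in NaIO3 RPE cells and 0.891 CPM in PBS, or 19.4% of the PBS level. Of the 7.03 CPM of Ciart, 0.238 CPM would come from the surface epithelium class and 0.127 CPM from the myeloid class.

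From cell to cell the members showed little shared variation. With every RPE cell thinned to 3000 UMIs (2 PBS cells were shallower and left out), the Pearson correlations over the 45 pairs of members ran from -0.05 to 0.07 over 2207 NaIO3 cells and from -0.02 to 0.05 over 3481 PBS cells. The variance to mean ratio of the thinned counts, which is 1 for pure counting, lay between 0.995 and 1.13 in NaIO3 and between 0.984 and 1.18 in PBS. The highest was that of Dbp in NaIO3 and of Bhlhe41 in PBS. The members had a mean of 0.0164 to 1.44 UMIs per thinned cell, so variation among cells in clock phase was not detectable at this depth.

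Outside the RPE, fewer cells and free RNA limit the values. RPE markers stood in the other 3 larger classes at 8.91% to 12.9% of their RPE level, and a clock gene level at that share of its RPE level can be free RNA of RPE cells. Surface epithelium, the keratin-bearing cells of cornea, limbus or conjunctiva, differed from the RPE in several levels. Nr1d1 was at 120 CPM (112 to 127) in NaIO3 and 91.1 CPM (72.6 to 113) in PBS surface epithelium, a ratio of 1.31 (1.05 to 1.66), and its level there was above the RPE interval in both libraries. Bhlhe41 was at 10.99 CPM (8.80 to 13.55) in NaIO3 and 7.68 CPM (3.09 to 15.8) in PBS surface epithelium. Free RNA at the share of the summed markers would give 8.76 CPM in NaIO3 and 9.94 CPM in PBS. Single RPE markers stood at 7.9% to 15.05% of their RPE level in NaIO3 and 7.58% to 10.55% in PBS surface epithelium. Bhlhe41, at 13.4% in NaIO3 and 7.245% in PBS, did not exceed the highest marker, so by that measure no level above free RNA was detectable.

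Per3 was at 33.6 CPM (29.7 to 37.9) in NaIO3 and 34.0 CPM (23.1 to 48.3) in PBS surface epithelium, a ratio of 0.987 (0.679 to 1.48). Dbp was at 64.8 CPM (59.3 to 70.6) in NaIO3 and 73.5 CPM (57.0 to 93.4) in PBS, of which free RNA of the RPE would supply 32.6 CPM in NaIO3 and 44.9 CPM in PBS. Ciart was at 7.32 CPM in NaIO3 from 58 UMIs and 4.39 CPM in PBS from 4 UMIs, a ratio of 1.67 (0.618 to 6.33) whose interval spans 1. It was the single member past 1.5-fold in this class, where 0 of 10 were lower by that fold, beside 9.89% of all measured genes, and 1 was higher, beside 30.9%. The difference between the classes in these ratios was not tested.

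Myeloid cells were not of one make-up in the 2 libraries. The summed antigen-presentation genes had a median of 0.963 per 10000 UMIs in NaIO3 and 69.1 in PBS myeloid cells, and the median UMIs per cell were 11431.5 in NaIO3 and 4143 in PBS. Bhlhe41, which resident macrophages such as microglia express, was at 99.2 CPM (91.5 to 107) in NaIO3 and 56.6 CPM (37.6 to 81.8) in PBS, a ratio of 1.75 (1.201 to 2.66). Per1 was at 11.9 CPM (9.36 to 14.96) in NaIO3 and 30.3 CPM (16.96 to 49.99) in PBS, from 74 UMIs in NaIO3 and 15 in PBS, a ratio of 0.393 (0.224 to 0.738). Dbp was at 54.6 CPM (48.9 to 60.7) in NaIO3 and 93.0 CPM (68.1 to 124) in PBS, and free RNA would supply 29.8 CPM in NaIO3 and 61.8 CPM in PBS of that. The parts above free RNA were 24.8 CPM in NaIO3 and 31.2 CPM in PBS, a ratio of 0.795, which is within 1.5-fold. With free RNA set by the highest single RPE marker, 14.9% of its RPE level, the Dbp interval in PBS did not clear it. By that measure a PBS level above free RNA was not established, so this ratio is uncertain.

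In the myeloid class 3 of 10 members (Per1, Per2 and Dbp) were lower by at least 1.5-fold, beside 25.4% of all measured genes, and 1 (Bhlhe41) was higher, beside 21.7%. Of the 3, Dbp is the one that falls within the fold above free RNA, with the limit given above for its PBS level. Per2 rested on 26 UMIs in NaIO3 and 5 in PBS, and the interval of its ratio, 0.414 (0.157 to 1.38), spans 1. The part of the different make-up of the class in these ratios was not tested.

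The fibroblast class, whose markers do not show which part of the eye it came from, had the highest PBS level of 5 members (Per3, Bhlhe41, Nr1d1, Dbp and Tef) among the 7 classes. Only for Per3 did the fibroblast interval lie above those of all other classes. The intervals of Bhlhe41 and Dbp overlapped those of RPE cells, and the intervals of Nr1d1 and Tef overlapped those of mural cells. Dbp was at 81.2 CPM (64.2 to 101) in NaIO3 and 492 CPM (444 to 544) in PBS fibroblasts, a ratio of 0.165 (0.128 to 0.211). Per3 was at 19.8 CPM (11.9 to 30.9) in NaIO3 and 124 CPM (101 to 151) in PBS, and Tef at 28.1 CPM (18.5 to 40.9) in NaIO3 and 148 CPM (123 to 178) in PBS. Nr1d1 was at 40.6 CPM (28.9 to 55.5) in NaIO3 and 146 CPM (120 to 175) in PBS, the opposite direction to that in RPE cells. The overlapping gene Thra was at 63.5 CPM in NaIO3 and 194 CPM in PBS fibroblasts, lower as Nr1d1 was, and its part in the Nr1d1 counts there was not tested. Arntl was at 36.4 CPM (25.4 to 50.7) in NaIO3 and 10.2 CPM (4.42 to 20.2) in PBS, from 35 UMIs in NaIO3 and 8 in PBS. Bhlhe41 was nearly equal, at 113.5 CPM (93.2 to 137) in NaIO3 and 118 CPM (94.8 to 144) in PBS.

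Of the 8 members with at least 20 UMIs in fibroblasts, 6 were lower by at least 1.5-fold (Per1, Per3, Nr1d1, Nr1d2, Dbp and Tef), beside 23.2% of all measured genes, and 1 (Arntl) was higher, beside 23.8%. The 2 left out, Per2 and Ciart, had 15 and 10 UMIs in all. The fibroblast class did not hold like cells in the 2 libraries. Of the 60 NaIO3 cells, 32 had a UMI of Cdkn2a, which encodes cell cycle inhibitors, against 0 of the 185 PBS cells. Dcn, the fibroblast proteoglycan decorin, was at 1044 CPM in those 32 cells, 9658 CPM in the other 28 NaIO3 cells and 18810 CPM in PBS cells. This split was chosen after the values were seen.

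In the 28 NaIO3 fibroblasts without a Cdkn2a UMI few UMIs were counted and the intervals were wide. Dbp was at 148 CPM (97.6 to 216) from 27 UMIs, Tef at 32.9 CPM (12.1 to 71.7) from 6 and Per3 at 43.9 CPM (19.0 to 86.5) from 8, all 3 with an interval below that of PBS fibroblasts. Nr1d1 was at 98.8 CPM (58.5 to 156) there, which overlaps the PBS interval, and Arntl at 43.9 CPM (19.0 to 86.5), which overlaps it as well. Per1 was at 49.4 CPM (22.6 to 93.75) there and 47.3 CPM (33.3 to 65.2) in PBS fibroblasts, so it was not lower in these cells. Nr1d2 was at 38.4 CPM (15.4 to 79.1) there and 80.6 CPM (61.9 to 103) in PBS fibroblasts, with overlapping intervals. In the 32 cells with a Cdkn2a UMI, Dbp was at 65.5 CPM (48.8 to 86.2) and Nr1d1 at 27.0 CPM (16.7 to 41.2). The part of the cell make-up in the fibroblast ratios was not tested further.

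**Figure D4:**
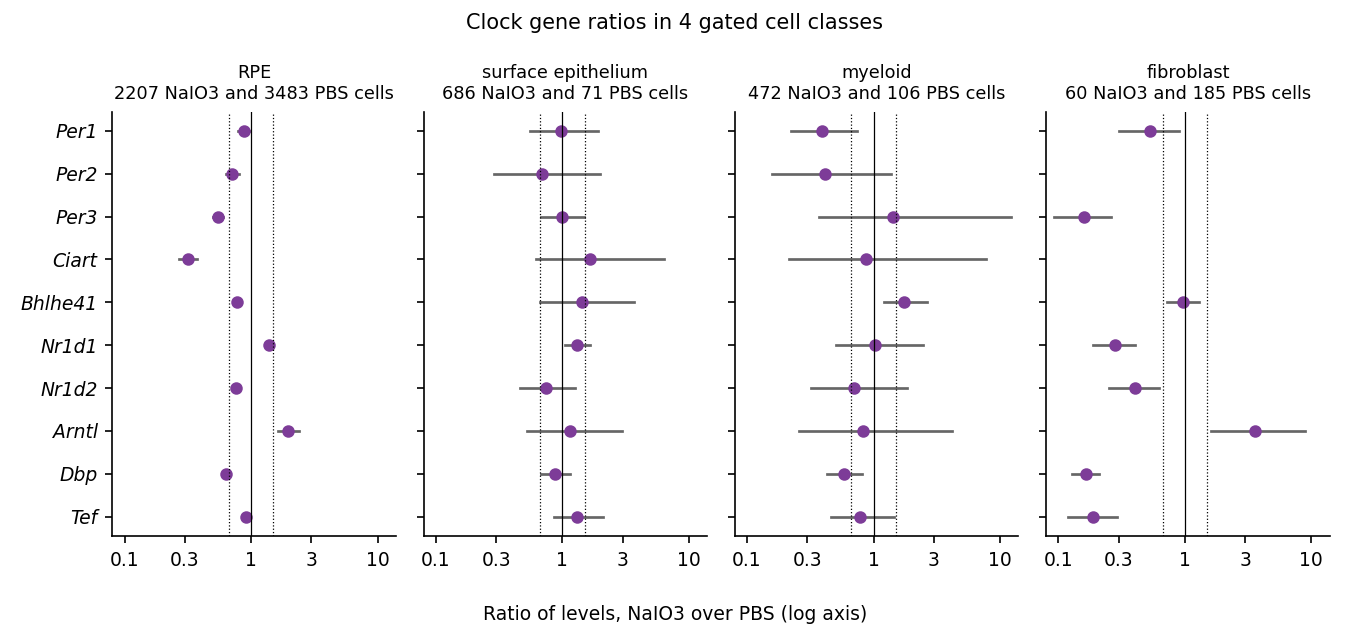
Ratio of NaIO3 over PBS for each clock gene (points, log axis) with exact 95% counting intervals (bars) in the 4 classes with at least 50 cells in each library; genes under 20 UMIs in a class are left out, and dotted lines mark 1.5-fold. Nr1d1 lies right of 1 in RPE and surface epithelium and at 0.279 in fibroblasts, Bhlhe41 at 1.75 in myeloid cells, and the bars are shortest in RPE cells.

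Across the 7 classes each member had its own order of levels. Dbp in NaIO3 was highest in RPE cells, with all 6 other classes below the RPE interval, while in PBS the fibroblast, RPE and mural classes, at 492, 479 and 459 CPM, had overlapping intervals above the other 4. In mural cells Dbp was at 76.4 CPM (58.7 to 97.8) in NaIO3 and 459 CPM (378 to 552) in PBS, but the NaIO3 mural class had 2 fibroblast and 2 mural markers among its 10 leading genes, so it may not match the PBS class. Ciart in PBS was highest in RPE cells, with 5 of the 6 other classes below the RPE interval and the mural class overlapping it. In NaIO3 the whole Ciart interval of RPE cells stood above the interval of 1 class, the myeloid one.

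Arntl in PBS was lowest in RPE cells of the 7 classes, at 4.59 CPM, and highest in the rod class, at 62.9 CPM (39.8 to 94.3). The rod class was the one class whose whole interval lay above that of RPE cells. In NaIO3 the rod class was again highest for Arntl, at 37.7 CPM (18.8 to 67.4), and RPE took place 5 of 7. The rod class in PBS had 3 cone markers and 1 rod marker among its 10 leading genes, so it holds cones as well. Nr1d2 was also highest there, at 89.0 CPM (58.1 to 130) in NaIO3 and 87.5 CPM (59.8 to 123) in PBS, but these intervals overlap those of RPE in NaIO3 and of fibroblasts and RPE in PBS. Most neighbouring classes in the order of a gene had overlapping intervals, from 3 of 6 pairs for Nr1d1 in NaIO3 to 6 of 6 in others.

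**Figure D5:**
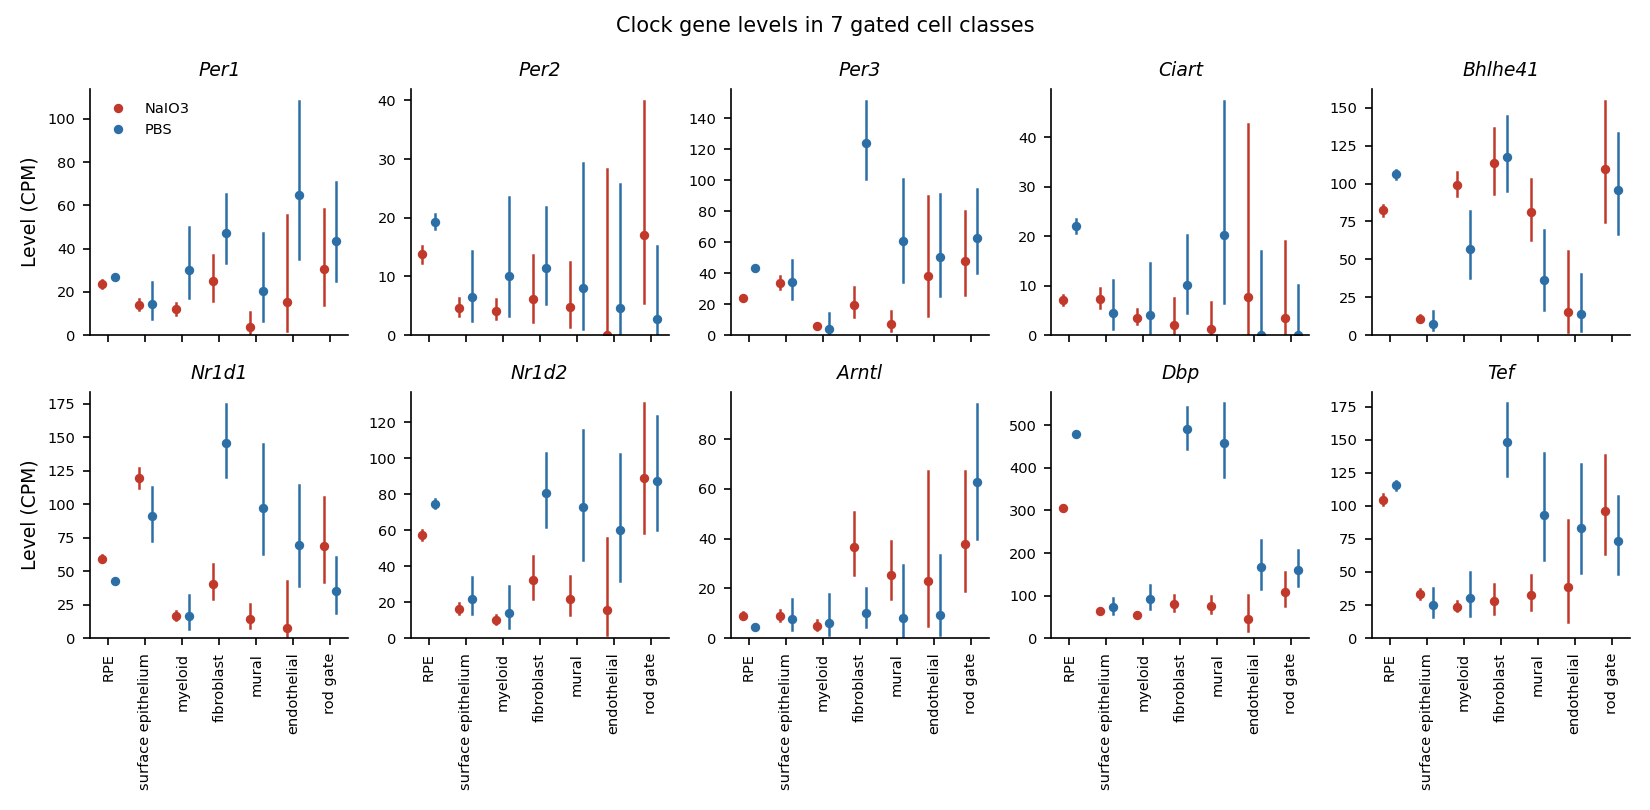
Level of each clock gene (CPM, linear axis from 0) in the 7 gated classes of the NaIO3 library (red, left point) and the PBS library (blue, right point), with exact Poisson 95% intervals as bars. Dbp in PBS is near 479 CPM in RPE cells and 492 CPM in fibroblasts and lower in surface epithelium and myeloid cells, and Nr1d1 in NaIO3 is highest in surface epithelium, at 120 CPM.

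The genes most like the members were sought over 8 points, the 4 larger classes of each library, by the correlation of log2(CPM + 5) with the members' mean. Of 10737 genes compared, the highest were Zfp612 (Pearson r = 0.99), Nrxn2 (0.98), Nudt19 (0.98), Trabd2b (0.98) and Gpc3 (0.98). Nudt19 was at 39.4 CPM in NaIO3 and 52.8 CPM in PBS RPE cells and at 39.6 CPM in NaIO3 and 69.1 CPM in PBS fibroblasts. Zfp612, Nrxn2 and Trabd2b were also lower in NaIO3 RPE cells, but Gpc3 was higher, at 203 CPM in NaIO3 and 154.5 CPM in PBS. Zfp612, Nrxn2 and Trabd2b had at most 2.15 CPM in surface epithelium and myeloid cells, so their likeness rests in part on low values. Of the members themselves, Nr1d2 (0.98), Dbp (0.95) and Tef (0.95) followed the mean most closely and Arntl (0.11) least. The 8 points share 2 libraries and their free RNA, so these values only describe a likeness.

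Of the clock genes outside the set, 9 of 11 had at least 20 UMIs in RPE cells, and 0 were past 1.5-fold in either direction, with a median log2 ratio of -0.11 beside 0.17 over all measured genes. Cry1 and Cry2, the partners of PER proteins, were at 8.997 CPM (7.89 to 10.2) and 24.95 CPM (23.1 to 26.9) in NaIO3, against 11.4 CPM (10.4 to 12.5) and 25.3 CPM (23.8 to 26.8) in PBS RPE cells. Rorb, an activator that competes with REV-ERB at ROR elements, was at 70.7 CPM (67.5 to 73.9) in NaIO3 and 90.7 CPM (87.9 to 93.6) in PBS, a ratio of 0.779 (0.737 to 0.823). Among the 12 genes for kinases, ubiquitin ligases and other modifiers of clock proteins, 0 were past 1.5-fold and 12 were above 1. Their median log2 ratio was 0.23. Of all 14202 measured genes 9159 were above 1, with a median of 0.17, and 22.8% were higher and 6.98% lower by 1.5-fold.

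Of 10 genes cycling in many tissues, 1 was lower by at least 1.5-fold, beside 6.98% of all measured genes, and 0 were higher, beside 22.8%. Their median log2 ratio was -0.04. The lower one was Klf9, a Krüppel-like factor, at 32.4 CPM (30.3 to 34.7) in NaIO3 and 53.7 CPM (51.5 to 55.9) in PBS RPE cells, a ratio of 0.605 (0.558 to 0.654). Klf9 is also a target of the glucocorticoid receptor. Of the 9 listed targets of this receptor, 2 were lower (Klf9 and Zbtb16) and 2 higher (Dusp1 and Fkbp5) by that fold. These counts stand beside the same shares of all measured genes, and the median of the 9 was -0.02. Dusp1 was at 45.7 CPM in NaIO3 and 9.09 CPM in PBS. Free RNA of the surface epithelium class would supply 59.7% of the NaIO3 and 55.5% of the PBS level of Dusp1, and the myeloid class 18.3% in NaIO3 and 37.4% in PBS. For Fkbp5 these parts were 15.1% in NaIO3 and 5.13% in PBS from surface epithelium, and 19.6% in NaIO3 and 16.4% in PBS from myeloid cells. Fkbp5 was at 2.53 CPM (1.96 to 3.22) in NaIO3 and 0.951 CPM (0.683 to 1.29) in PBS, and Zbtb16 had 6 UMIs in NaIO3 and 17 in PBS, with a ratio interval that spans 1.

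Temperature and handling genes were listed because they can move clock genes. Of 8 temperature-responsive genes, 1 was lower by at least 1.5-fold, beside 6.98% of all measured genes, and 4 were higher, beside 22.8%. Cirbp, the cold-inducible RNA-binding protein, was at 97.98 CPM (94.3 to 102) in NaIO3 and 191 CPM (187 to 196) in PBS RPE cells, a ratio of 0.512 (0.490 to 0.535). The heat shock gene Hspa8 was at 1261 CPM in NaIO3 and 785 CPM in PBS, a ratio of 1.61 (1.58 to 1.63), and Hsph1 at 25.7 CPM in NaIO3 and 9.51 CPM in PBS. Hspa1a was at 34.0 CPM in NaIO3 and 10.7 CPM in PBS and Hspa1b at 12.4 CPM in NaIO3 and 1.46 CPM in PBS, but free RNA of the surface epithelium class would supply 47.2% and 70.2% of their NaIO3 levels and 14.4% and 31.1% of their PBS levels.

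Immediate early genes can be induced by dissociation of tissue. Of 9 such genes 0 were lower in NaIO3 RPE cells by at least 1.5-fold, beside 6.98% of all measured genes. By that fold 7 were higher, beside 22.8%, and the median log2 ratio was 2.14. Of these, Atf3 was at 13.5 CPM in NaIO3 and 1.49 CPM in PBS, and Jun at 47.8 CPM in NaIO3 and 9.39 CPM in PBS. Fos was at 43.6 CPM in NaIO3 and 8.95 CPM in PBS, Junb at 76.1 CPM in NaIO3 and 17.3 CPM in PBS, and Fosb at 6.12 CPM in NaIO3 and 1.11 CPM in PBS. Free RNA of the surface epithelium class would supply 37.4% of the NaIO3 level of Atf3, 64.0% of Jun, 39.6% of Fos, 67.1% of Junb and 58.3% of Fosb. In PBS it would supply 73.9% of Atf3, 49.3% of Jun, 27.9% of Fos, 55.9% of Junb and 59.1% of Fosb. The myeloid class would supply 33.8% of Atf3, 28.5% of Jun, 34.5% of Fos, 17.3% of Junb and 32.6% of Fosb in NaIO3, and in PBS 40.1% of Atf3, 42.1% of Jun, 52.7% of Fos, 22.3% of Junb and 48.2% of Fosb. In PBS the surface epithelium and myeloid parts of Atf3 add to more than its whole level, as do those of Fosb. The estimates are thus too high for some genes. For the members the part from either class was at most 6.54% in NaIO3, as given above. The part of handling in the members' levels was not tested.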

How the data were processed

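Single cells of the RPE and choroid of NaIO3 and PBS treated mice were measured by 10x droplet sequencing, 1 library per group. The authors deposited unnormalised UMI counts for each gene and cell barcode, made with Cell Ranger 3.0.2 on mm10, per the submitters' processing notes. Annotation release and strandedness are not given in the sources used. The members, gene lists and markers were chosen with earlier results of these data known, and the marker cuts after the distribution of marker scores was seen.

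Cells were kept from 500 genes upwards if no more than 25% of their counts were mitochondrial, and the highest Scrublet scores (scanpy 1.11.5) were removed as doublets up to 0.8% per 1000 barcodes, which left 3813 NaIO3 and 4217 PBS cells. A cell joined a class when the summed UMIs of its markers reached, per 10000 UMIs, 100 for RPE, surface epithelium, myeloid and rod, 30 for fibroblast and mural, and 16 for endothelial. Cells that passed no cut (267 NaIO3 and 105 PBS) or several (48 NaIO3 and 93 PBS) were left out.

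Counts were summed per class and library and given as CPM, with exact Poisson 95% intervals; ratios have exact conditional binomial 95% intervals (scipy 1.17.1). Genes with at least 20 UMIs in a class over both libraries were measured, and 1.5-fold marked a gene as past the fold. Free RNA was estimated from the summed markers of 1 class in another, using for RPE the 7 markers with at least 100 CPM in RPE cells of both libraries. Coordinates are from GENCODE M21 (GRCm38), which held 27645 of the 27998 identifiers, and promoters from RefSeq (GRCm38.p6). Every member was named, from each list the genes past 1.5-fold in RPE cells, at most the 5 whose ratio bound was furthest from 1, and the 5 genes most like the members; Clock, Cry1, Cry2, Rorb, Dcn, Cdkn2a and the overlapping genes were added after their values were seen. The alternatives were other gates, filters, scalings (TMM from edgeR 4.0.16), depths and folds.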

Additional observations from a re-analysis of the deposited data

Results flagged for a closer look

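Bhlhe41 had a ratio of 1.75 in myeloid cells and 0.776 in RPE cells, so NaIO3 was higher in one class and lower in the other. Nr1d1 had a ratio of 0.279 in fibroblasts and 1.40 in RPE cells. With 1 library per group each is a pair of opposite directions, and the difference between the classes was not tested. In both classes the cells of the 2 libraries differed in make-up: 32 of 60 NaIO3 fibroblasts had a Cdkn2a UMI, and the antigen-presentation genes of myeloid cells had a median of 0.963 per 10000 UMIs in NaIO3 and 69.1 in PBS.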

How the results depend on the processing

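No paired analysis was possible because each group has 1 library. Over 16 alternatives in RPE cells that change cells, scaling or depth, 9 of the 10 members kept their direction. Tef did not: its log2 ratio was 0.0523 without cells with interferon-induced UMIs, 0.0238 from the mean of each cell's CPM, 0.027 with cells thinned to the same UMIs and 0.10 in cells with UMIs under the median, against -0.14 from all RPE cells. The median log2 ratio of the members, -0.37, was -0.28 without cells high in pigment genes, -0.26 without those with interferon-induced UMIs, -0.56 with a mitochondrial limit of 10%, -0.55 with TMM scaling and -0.47 in cells with a mitochondrial share of 10% or more. TMM moved the median of all measured genes to -0.01, against 0.17 in CPM, and the share of genes past 1.5-fold to 11.4% lower and 16.9% higher, so Per3 stood at -1.05 and Dbp at -0.82. The members lower by the fold, 3 at 1.5-fold, were 5 with the 10% mitochondrial limit (beside 6.45% of all measured genes), 4 with TMM scaling, 6 at a fold of 0.32 on the log2 scale (14.7%) and 1 at 2-fold (2.96%). They were 2 with free RNA subtracted (6.74%), without cells high in pigment genes (6.16%) and without those with interferon-induced UMIs (8.8%), where Dbp was at -0.56, -0.57 and -0.58. Those higher, 1, were 2 at the smaller fold (38.1%), 0 at 2-fold (11.7%) and 2 in cells with UMIs under the median (28%), where 2 were lower (9.6%). The strata by UMIs and by a share of 10% or more were chosen after seeing the data. Tef in fibroblasts had a log2 ratio of -1.66 with a stricter gate and -2.40 with the gate used. The cause of these shifts was not tested. Intervals cover counting error only, and the small classes limit every value outside the RPE.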

Other observations

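Clock-linked genes were also counted in the other larger classes. In surface epithelium Clock, the partner of Arntl, was at 71.9 CPM (66.1 to 78.0) in NaIO3 and 42.8 CPM (30.4 to 58.5) in PBS, a ratio of 1.68 (1.21 to 2.39), and in fibroblasts at 36.4 CPM (25.4 to 50.7) in NaIO3 and 43.5 CPM (30.1 to 60.8) in PBS. In fibroblasts 7 of 10 genes that cycle in many tissues were lower in NaIO3 by at least 1.5-fold, with a median log2 ratio of -0.93 beside 0.03 over all measured genes, and among clock protein modifiers 1 of 10 measured was lower and 3 were higher. Of all genes measured in fibroblasts 23.2% were lower and 23.8% higher by that fold. In myeloid cells 7 of 9 immediate early genes and 6 of 7 measured glucocorticoid receptor targets were lower by that fold, with medians of -1.11 and -1.22 beside -0.12 over all measured genes, of which 25.4% were lower by the fold. The cells of both classes differed in make-up between the libraries, and the part of this in these values was not tested.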
